A study of Mus musculus with 2 samples.

Results

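Glucagon-positive cells were taken from single-cell RNA sequencing of the pancreas of mouse embryos at stage E15.5, counted in days of gestation. A cell was counted as a glucagon cell when Gcg, the gene of preproglucagon, held at least 200 of every 10000 UMIs (molecules counted by their molecular identifiers). The same cell had to hold under 200 UMIs per 10000 of Ins1 and Ins2 together, under 50 of Sst, under 100 of Ctrb1, under 20 of Col1a1 and Col3a1 together, and fewer than 3 UMIs of Neurog3. By this rule 412 of 10008 cells were glucagon cells, 136 of 3624 in the Mettl3pKO library and 276 of 6384 in the WT library. Mettl3pKO embryos lack Mettl3 in Pdx1+ progenitors of the pancreas. Mettl3 is the methyltransferase that places the m6A mark on messenger RNA. The other embryos are labelled WT. Pancreata were digested with an enzyme, and libraries were made with BD Rhapsody, which captures single cells in microwells. The driver of the deletion beyond Pdx1, the deleted exons, the sex and the number of embryos behind a library are not given in the sources used here. Each genotype is 1 library, which leaves every difference between them without a replicate check, and none was tested. The 95% intervals cover counting error only.

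Alpha cells of the islet secrete glucagon, the hormone that makes the liver release glucose, and they are among the first hormone cells of the mouse pancreas. They arise from progenitors that pass through Neurog3. Proglucagon is cut to glucagon in the secretory granule by the convertase Pcsk2, whereas Pcsk1 cuts the same precursor to GLP-1 in gut cells.

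Gcg was the most abundant transcript that the rule used, and its level is a description of the rule. It held a median of 1053 UMIs per 10000 in the Mettl3pKO glucagon cells (lowest 286, highest 2092) and of 937 in the WT ones (lowest 204, highest 2096), so that the cells of both libraries spanned much the same range. Just outside the Gcg threshold, cells that met every other condition had 124.6, 94.3 and 87.5 in Mettl3pKO, against 179, 172 and 164 in WT. Between 100 and 200 per 10000 lay 1 such Mettl3pKO cell and 11 WT cells. Of 152 Mettl3pKO and 302 WT cells above the Gcg threshold, the insulin condition removed 4 and 3, the Ctrb1 condition 8 and 10 and the collagen condition 4 and 11. Cells rich in both glucagon and insulin thus numbered 4 in Mettl3pKO and 3 in WT.

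The promoter of Gcg is shown because this gene defines the cells. Gcg lies on mouse chromosome 2, on the minus strand. The RefSeq window of build GRCm38.p6 at chr2:62483604-62483903 runs from 250 bases before to 50 bases after the start. Capitals mark the letters TATAAA on either strand, which matched at -72 and at -24 from the start; 13.6% of 32851 mouse promoter windows of this length hold them.
Gcg: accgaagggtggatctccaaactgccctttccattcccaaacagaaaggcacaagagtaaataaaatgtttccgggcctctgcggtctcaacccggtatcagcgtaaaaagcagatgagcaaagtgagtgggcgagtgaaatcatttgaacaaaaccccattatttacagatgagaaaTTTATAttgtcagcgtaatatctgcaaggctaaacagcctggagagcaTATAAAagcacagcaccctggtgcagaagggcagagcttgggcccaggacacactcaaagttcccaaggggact

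The libraries differed in depth and in their mix of cells. The median was 16481 UMIs per cell in Mettl3pKO and 10824 in WT, and no Mettl3pKO cell had fewer than 10719. Among glucagon cells the gap was smaller, with medians of 14776 and 13562 UMIs, 4487 and 4289 genes, and 8.16% and 7.35% mitochondrial UMIs. Their summed UMIs were 2179976 in Mettl3pKO and 3954549 in WT. Cells with a Y-linked UMI and no Xist UMI were 92 of the 136 Mettl3pKO glucagon cells and 119 of the 276 WT ones, and cells with Xist and no Y-linked UMI were 25 and 120, called Y-linked cells and Xist cells here. The genotypes thus differ in the share of male and female cells among glucagon cells, and for some genes the values below are also given in each kind of cell. Values are also given in the 123 Mettl3pKO and 247 WT glucagon cells with little RNA of other cell types, a comparison chosen after seeing the data. These had, per 10000 UMIs, under 100 of the acinar and of the erythroid list, under 25 of the duct and trunk list and under 10 each of the mesenchyme, immune and mesothelium lists. Of cell identifiers, 33 stood in both tables, and none of them was a glucagon cell.

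Mettl3 (chromosome 14, 52294841 to 52305128, minus strand, mm10) had 23 UMIs in the Mettl3pKO glucagon cells and 58 in the WT ones, or 10.6 and 14.7 UMIs per 1000000 (CPM). The ratio of 0.719 (95% interval 0.423 to 1.18) shows no difference detectable at this depth, and it was 1.18 in Y-linked cells and 0.727 in Xist cells. Reads outside the deleted exons would still be counted, so the transcript does not measure the deletion. Over all 11590 genes with 20 or more UMIs in the glucagon cells of both libraries together, 7.08% were at least 1.5-fold higher in Mettl3pKO and 5.51% at least 1.5-fold lower, around a median log2 ratio of 0.00. Of 21 genes of the m6A machinery, 1 stood at least 1.5-fold higher in Mettl3pKO glucagon cells, the reader Ythdf2 with 63.3 CPM against 42.0 CPM in WT (1.51, 1.19 to 1.90; 1.39 in cells with little RNA of other cell types), and none stood 1.5-fold lower.

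Of 12 alpha identity genes, 0 were at least 1.5-fold higher and 0 lower in Mettl3pKO, where 7.08% and 5.51% of all genes were. The median log2 ratio of the 12 was 0.02. The ratios of 5 lay below 1 and of 7 above, and the intervals of 3 lay wholly below 1 and of 5 wholly above. Gcg stood at 101223 CPM in Mettl3pKO and 92378 CPM in WT, a ratio of 1.10 (1.09 to 1.10). The homeobox genes Irx1 and Irx2 were close to even, with Irx1 at 330 CPM in Mettl3pKO and 324 CPM in WT (1.02, 0.929 to 1.12) and Irx2 at 369 and 384 CPM (0.961, 0.882 to 1.05). Both lie on chromosome 13. The POU factor Pou3f4 had 126 CPM in Mettl3pKO and 142 CPM in WT (0.888, 0.765 to 1.03), and the ETS factor Etv1 had 561 and 657 CPM (0.854, 0.797 to 0.914), with ratios of 0.940 in Y-linked cells and 0.614 in Xist cells.

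Ttr, transthyretin, a carrier of thyroid hormone that alpha cells also make, had 9957 CPM in Mettl3pKO glucagon cells and 6881 CPM in WT ones, a ratio of 1.45 (1.42 to 1.47). Its ratio was 1.53 in cells with a Y-linked UMI and 1.35 in cells with Xist. In the insulin gate (at least 200 UMIs per 10000 of the insulin genes and under 200 of Gcg, with the other conditions alike) Ttr was lower in level and nearer to even, with 1845 CPM in Mettl3pKO and 1584 CPM in WT (1.16, 1.12 to 1.21). Slc38a5, an amino acid transporter that alpha cells use to take up glutamine, had 2818 CPM in Mettl3pKO and 2474 CPM in WT (1.14, 1.10 to 1.18). Gc, the vitamin D binding protein, had 61.9 and 44.3 CPM (1.40, 1.11 to 1.76).

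**Figure D1:**
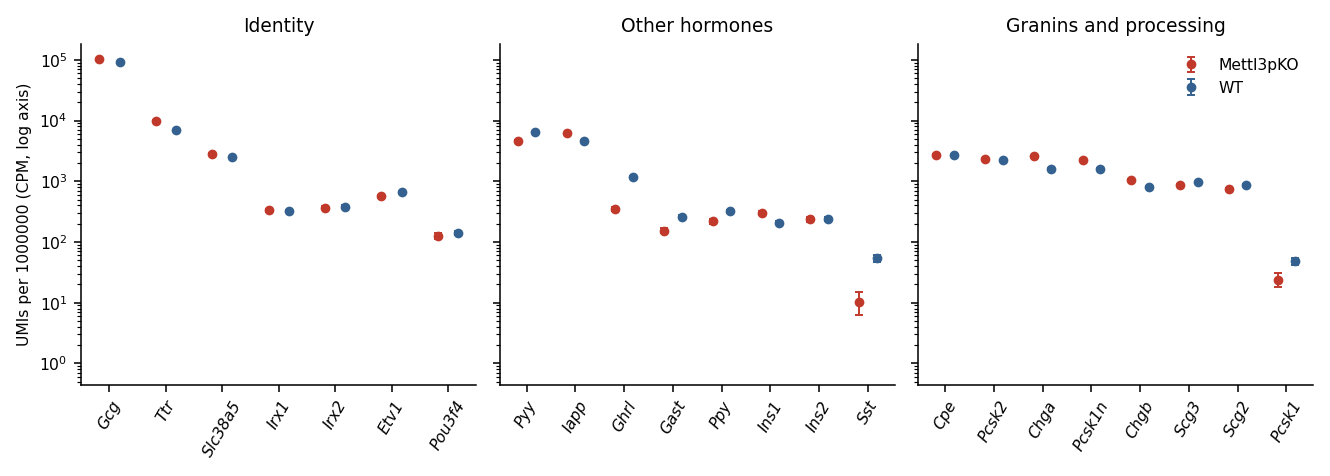
Levels in glucagon cells of Mettl3pKO (red, left of each pair) and WT (blue), in UMIs per 1000000 on a log axis, for identity genes, other hormones and granule proteins; bars are exact Poisson 95% intervals of the summed UMIs of 1 library each. The pairs of Irx1 and Irx2 lie close together, while Ghrl (354 against 1193) and Sst (10.1 against 54.1) are the pairs farthest apart.

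Setting glucagon cells beside the insulin gate, 146 Mettl3pKO and 364 WT cells, showed which genes the cells carry beside the hormone; Gcg and the insulin genes are set by the rules, and the contrast is a description. The alpha cell markers other than Gcg were all higher in glucagon cells than in the insulin gate: Irx2 by 39.6-fold in Mettl3pKO and 69.7-fold in WT, Ttr by 5.40-fold and 4.34-fold, and Slc38a5 by 3.91-fold and 3.54-fold. After Gcg, genes with a high ratio to the insulin gate in WT were Serpina1b (120), Irx1 (76.8), Irx2 (69.7), Edn3 (64.5), Peg10 (48.4), Etv1 (47.8) and Pou3f4 (40.6), each ratio being glucagon cells over the insulin gate. Serpina1b encodes an alpha-1 antitrypsin, a protease inhibitor of the blood, and Edn3 the peptide endothelin 3. In Mettl3pKO the same contrast gave 80.4 for Serpina1b, 108 for Peg10 and 34.7 for Etv1. At the other end stood genes of beta cells: the channel gene Kcnk9 had no UMI in any glucagon cell of either library, which allows up to 1.38 CPM in Mettl3pKO and 0.759 CPM in WT (3 counts), against 153 CPM in the Mettl3pKO and 253 CPM in the WT insulin gate. Mafa, the beta cell factor, had 3.21 CPM in Mettl3pKO and 2.02 CPM in WT glucagon cells, against 899 and 1179 CPM in the insulin gates.

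Neighbouring imprinted genes were among the 20 highest. Peg10, a gene derived from a retrotransposon, Sgce, the sarcoglycan epsilon gene, and Asb4 all lie within chromosome 6 between 4674350 and 5433022 (mm10). Peg10 had 3010 CPM in Mettl3pKO glucagon cells and 3776 CPM in WT ones (0.797, 0.774 to 0.821), against 27.9 and 78.0 CPM in the insulin gates. Sgce had 105 and 123 CPM in glucagon cells (0.851, 0.724 to 0.998), and Asb4 247 and 229 CPM (1.08, 0.969 to 1.20). Of 18 imprinted genes measured, 2 were at least 1.5-fold higher in Mettl3pKO glucagon cells and 0 lower, where 7.08% and 5.51% of all genes were. The 2 were the growth-related noncoding RNA H19 and Mest (1.15 and 1.02 in cells with little RNA of other cell types).

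**Figure D2:**
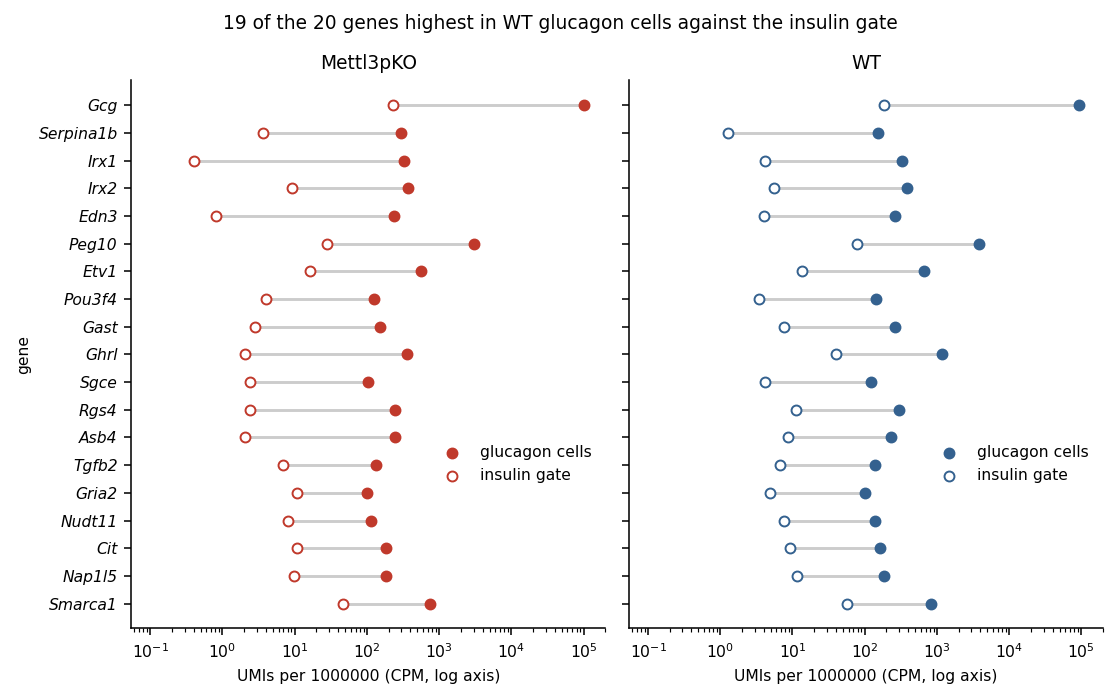
Of the 20 genes with the highest ratio of WT glucagon cells to the WT insulin gate, 19 are shown, in Mettl3pKO (left panel) and WT (right panel): filled points are glucagon cells and open points the insulin gate, in UMIs per 1000000 on a log axis. In both panels every filled point lies to the right of its open point, by 491.8-fold for Gcg and 14.6-fold for Smarca1 in WT.

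Glucagon cells were a smaller part of the Mettl3pKO epithelium, though not of its hormone cells. They were 133 of 2978 epithelial cells in Mettl3pKO (4.47%, 3.75 to 5.27) and 273 of 4306 in WT (6.34%, 5.63 to 7.11), a ratio of shares of 0.704 (0.568 to 0.870). Epithelial cells here are those with 2 or more UMIs of Epcam and Cdh1 and low collagen. Of all cells they were 3.75% in Mettl3pKO and 4.32% in WT (0.868, 0.702 to 1.07). Of the cells with glucagon, insulin or somatostatin they were 136 of 289 in Mettl3pKO (47.1%) and 276 of 722 in WT (38.2%), a ratio of 1.23 (0.995 to 1.52). The insulin gate held 4.03% of all Mettl3pKO cells and 5.70% of all WT cells, and the somatostatin gate held 3 of 3624 and 79 of 6384 cells.

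The shares depended on which cells were kept, and the tables may lack shallow cells. In cells with 13000 UMIs or more in both libraries, glucagon cells were 100 of 2583 epithelial cells in Mettl3pKO (3.87%) and 155 of 1805 in WT (8.59%), a ratio of 0.451 (0.347 to 0.583). With at most 10% mitochondrial UMIs and at least 500 genes the ratio of epithelial shares was 1.07 (0.843 to 1.35), the opposite side of 1. It was 0.523 where a Y-linked UMI was found and 0.856 (0.528 to 1.34) where Xist was. The share of hormone cells stayed between 1.10 and 1.29 times WT in these splits of depth and of Y-linked and Xist UMIs.

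Transcripts of other islet and gut hormones stood on both sides of even. Of 11 hormone genes measured, 2 were at least 1.5-fold higher and 3 at least 1.5-fold lower in Mettl3pKO glucagon cells. Over all genes these shares were 7.08% and 5.51%. The rule limits Sst, which is among the 3 lower genes, and also Ins1 and Ins2, so the count is partly set by the rule. Ghrl, the gene of ghrelin, which marks a fetal islet cell type related to alpha cells, had 772 UMIs or 354 CPM in Mettl3pKO and 4719 UMIs or 1193 CPM in WT, a ratio of 0.297 (0.275 to 0.320). Ghrelin transcripts sat in a minority of cells: 9 of 136 Mettl3pKO glucagon cells (6.62%) and 45 of 276 WT ones (16.3%) had 10 or more Ghrl UMIs per 10000. The 10 richest cells held 91.5% of the Ghrl UMIs in Mettl3pKO and 47.5% in WT. Thinned to 9762 UMIs per cell, with 28 shallower WT cells left out, 15.4% of Mettl3pKO and 28.6% of WT glucagon cells had a Ghrl UMI.

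Cells that should lack ghrelin had Ghrl UMIs too, at lower shares, and the source of these was not tested. In cells rich in collagen transcripts 2.96% of 574 Mettl3pKO and 6.68% of 689 WT cells had one at the same thinned depth (median depths before thinning 14679 and 9212 UMIs, the WT value over all 1601 such cells). With a Y-linked UMI, Mettl3pKO glucagon cells had 260 CPM of Ghrl and WT ones 1615 CPM (0.161); with Xist they had 340 and 655 CPM (0.519). In cells with 13000 UMIs or more the ratio was 0.470 (0.429 to 0.514). Gcg, which the rule used, had a median of 1096 UMIs per 10000 in the ghrelin-rich Mettl3pKO cells, where the rest had 1052, and of 922 in the WT ones, where the rest had 943. The median Pyy of the ghrelin-rich cells was lower than that of the rest in both libraries, at 22.0 against 36.9 in Mettl3pKO and 16.0 against 51.4 in WT.

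Pyy, peptide YY, a hormone that early islet cells share with the gut, was made by nearly every glucagon cell. It had 4658 CPM in Mettl3pKO and 6429 CPM in WT (0.725, 0.708 to 0.741), and after thinning 96.3% of Mettl3pKO and 98.0% of WT glucagon cells had a UMI, where the collagen-rich cells gave 11.5% and 16.3%. Ppy, pancreatic polypeptide, had 221 and 319 CPM (0.692, 0.622 to 0.770). Among cells with Xist, Ppy was near even at 347 CPM in Mettl3pKO and 339 CPM in WT. Gast, gastrin, a gut hormone that the fetal islet also makes, had 154 CPM in Mettl3pKO and 261 CPM in WT (0.591, 0.521 to 0.669), and it too was near even among cells with Xist, at 243 and 236 CPM. Sst was limited by the rule, and below its threshold it had 22 UMIs in Mettl3pKO and 214 in WT, or 10.1 and 54.1 CPM. Its share of thinned cells with a UMI was 4.41% in Mettl3pKO and 27.4% in WT. Among collagen-rich cells, 37 of 574 in Mettl3pKO and 124 of 689 in WT had an Sst UMI. The source of the Sst UMIs was not tested in either library.

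Iapp, amylin, had 6127 CPM in Mettl3pKO glucagon cells and 4628 CPM in WT ones (1.32, 1.30 to 1.35), far below the insulin gates at 26977 and 21209 CPM. Collagen-rich cells had 459 CPM of Iapp in Mettl3pKO and 232 CPM in WT, and 14.8% and 18.7% of them had a UMI after thinning. Of the insulin genes, which the rule limits, Ins1 had 305 and 209 CPM and Ins2 236 and 239 CPM; thinned shares with an Ins2 UMI were 67.6% in Mettl3pKO and 72.2% in WT, against 52.6% and 64.4% in the collagen-rich cells. Gip and Npy were the genes at least 1.5-fold higher, from few cells: 11 Mettl3pKO and 13 WT glucagon cells had a Gip UMI, and 7 in each library an Npy UMI. Gip had 31.2 CPM in Mettl3pKO and 5.56 CPM in WT, with a ratio of 7.97 in Y-linked cells and of 1.13 (0.204 to 4.18) in Xist cells. Npy had 17.0 CPM in Mettl3pKO and 2.28 CPM in WT.

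**Figure D3:**
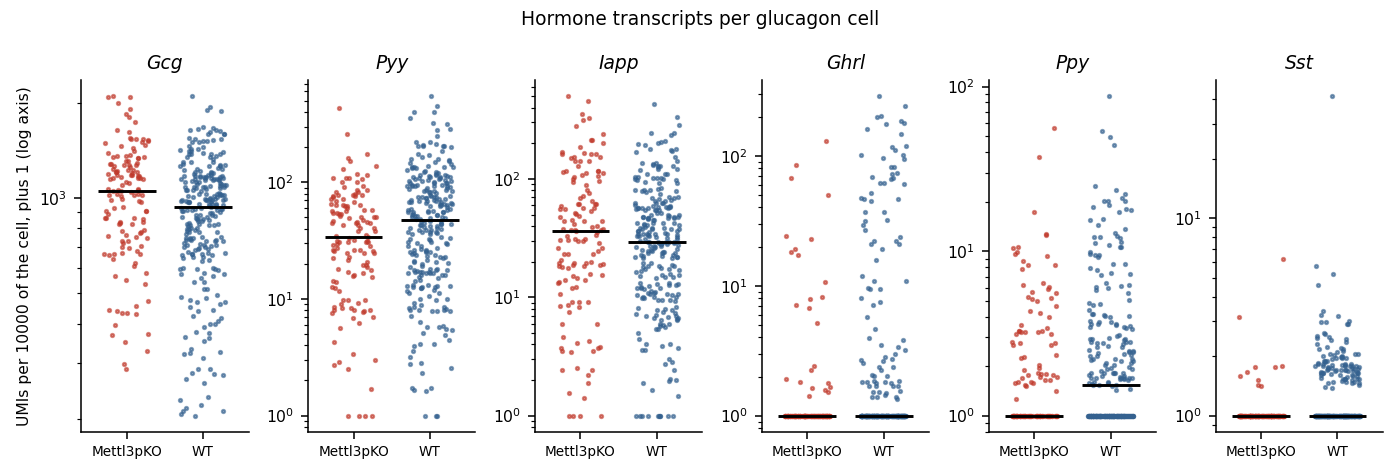
Hormone transcripts in each glucagon cell of Mettl3pKO (red, left) and WT (blue, right), as UMIs per 10000 of the cell plus 1 on a log axis that differs between panels; black lines are medians. Gcg and Pyy fill whole ranges in both, while Ghrl is carried by a tail of cells, 9 in Mettl3pKO and 45 in WT at 10 or more per 10000.

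Chga, chromogranin A, was the granule protein with the greatest excess in Mettl3pKO. Of 16 granins and processing genes, 1 was at least 1.5-fold higher and 1 lower, where 7.08% and 5.51% of all genes were. The median log2 ratio of the 16 was 0.05. Chga had 2558 CPM in Mettl3pKO and 1594 CPM in WT, a ratio of 1.60 (1.55 to 1.66), and it had a UMI in all 136 and all 276 glucagon cells. The ratio was 1.68 in cells with a Y-linked UMI, 1.28 in cells with Xist, and 1.31 (1.28 to 1.34) in the insulin gate. Collagen-rich cells had 184 CPM of Chga in Mettl3pKO and 98.5 CPM in WT, and 10.1% and 13.9% of them had a UMI after thinning. Pcsk1n, the precursor of the peptide proSAAS, had 2267 CPM in Mettl3pKO and 1588 CPM in WT (1.43, 1.38 to 1.48). Chgb, chromogranin B, had 1039 and 806 CPM (1.29, 1.22 to 1.36), whereas the secretogranin Scg2 had 740 and 859 CPM (0.862, 0.812 to 0.915).

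The convertase of glucagon was even and that of GLP-1 scarce. Pcsk2 had 2314 CPM in Mettl3pKO and 2214 CPM in WT (1.05, 1.01 to 1.08). Pcsk1 had 52 UMIs in Mettl3pKO and 190 in WT, or 23.9 and 48.0 CPM (0.496, 0.358 to 0.678), against 722 and 663 CPM in the insulin gates. The carboxypeptidase Cpe, which trims the cut hormones, had 2756 and 2681 CPM (1.03, 0.996 to 1.06).

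Genes of release and excitability were close to even. Of 18 exocytosis genes, 1 was at least 1.5-fold higher and 0 at least 1.5-fold lower. The exception was the vesicle protein Syt4, with 24.3 CPM in Mettl3pKO and 9.61 CPM in WT (2.53, 1.64 to 3.94), and the SNARE gene Snap25 had 76.1 and 98.9 CPM (0.770, 0.638 to 0.926). Of 13 ion channel genes, 0 were at least 1.5-fold higher and 0 lower. As 7.08% of all genes were that much higher and 5.51% lower, both counts are near those of any genes. The subunits of the ATP-sensitive potassium channel were slightly below even, Kcnj11 at 106 CPM in Mettl3pKO and 133 CPM in WT (0.792, 0.675 to 0.926) and Abcc8 at 433 and 486 CPM (0.891, 0.823 to 0.963). The calcium channel gene Cacna1d stood at 106 and 76.4 CPM (1.38, 1.16 to 1.65).

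Endocrine transcription factors lay slightly below even as a group. Of 20 measured, 0 were at least 1.5-fold higher and 0 lower, 17 had a ratio below 1, and the intervals of 9 lay wholly below 1 and of 2 wholly above. Over all genes 5852 of 11590 had a ratio below 1, and 7.08% were at least 1.5-fold higher and 5.51% lower. Meis2 had 776 CPM in Mettl3pKO and 1032 CPM in WT (0.752, 0.710 to 0.796), Pax6, which the alpha programme needs, 445 and 529 CPM (0.842, 0.779 to 0.909), and Isl1 1066 and 1193 CPM (0.893, 0.850 to 0.939). Foxo1 was the one farthest above even, with 142 and 106 CPM (1.33, 1.15 to 1.55). Of 14 progenitor and precursor genes, 1 was at least 1.5-fold higher and 1 lower. Sox4 had 101 CPM in Mettl3pKO and 52.1 CPM in WT (1.94, 1.59 to 2.35), and Neurog3, which the rule limits, had 5 and 32 UMIs. Fev, the precursor stage factor, was even at 243 CPM in Mettl3pKO and 230 CPM in WT (1.06, 0.947 to 1.18), with a UMI in 79.4% and 80.6% of thinned cells.

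The 12 highest and the 12 lowest genes in Mettl3pKO were ranked by the interval bound nearest 1, among genes that reached 100 CPM in a library and 50 UMIs over both. The ranking left out globins, sex-linked genes, genes of ribosomal proteins and of mitochondria, and the acinar and hormone lists. Genes so left out include Serpina6 among the higher ones, and Ghrl, Gast and the globin Hba-a1 (550 CPM in Mettl3pKO and 1922 CPM in WT) among the lower ones. The highest of the ranked genes held genes better known from the liver or as secreted proteins. Fgb, the fibrinogen beta chain, had 128 CPM in Mettl3pKO and 56.4 CPM in WT (2.28, 1.90 to 2.73), but the 10 richest cells held 89.6% of its UMIs in Mettl3pKO and 72.6% in WT, and among cells with Xist its ratio was 0.972 (0.658 to 1.40). Serpina1b had 293 and 154 CPM (1.91, 1.70 to 2.13) and the neighbouring Serpina1a 125 and 71.1 CPM (1.76, 1.48 to 2.08). These near-identical copies on chromosome 12 can share reads, so the split between them is uncertain.

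Others of the highest genes depended on which cells were compared. Cartpt, the precursor of the peptide CART, had 124 CPM in Mettl3pKO and 69.8 CPM in WT (1.77, 1.49 to 2.11), with a UMI in 34 of 136 and 33 of 276 glucagon cells. The 10 richest cells held 70.4% of the Cartpt UMIs in Mettl3pKO and 89.1% in WT. Cartpt had 142 and 23.0 CPM in cells with a Y-linked UMI (6.17, 4.34 to 9.02) but 150 and 119 CPM in cells with Xist (1.25, 0.924 to 1.68). H19 had 251 and 142 CPM (1.77, 1.57 to 1.99), the matrix protein Sparc 106 and 57.4 CPM (1.84, 1.52 to 2.22), and the glypican Gpc3 108 and 58.2 CPM (1.86, 1.55 to 2.24). In Y-linked cells H19 stood at 0.963 (0.789 to 1.17) and Sparc at 0.901 (0.662 to 1.22), and in Xist cells they stood at 3.54 and 4.44. In cells with little RNA of other cell types these ratios were 1.15 for H19, 1.06 for Sparc and 1.18 for Gpc3. There Chga stood at 1.62, Serpina1b at 2.09 and Cartpt at 2.48. Il1r1, the interleukin 1 receptor, had 275 CPM in Mettl3pKO and 176 CPM in WT (1.56, 1.40 to 1.75), and the metallothionein Mt2 157 and 96.3 CPM (1.63, 1.40 to 1.89), which stood at 0.853 among cells with under 2 proliferation UMIs.

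**Figure D4:**
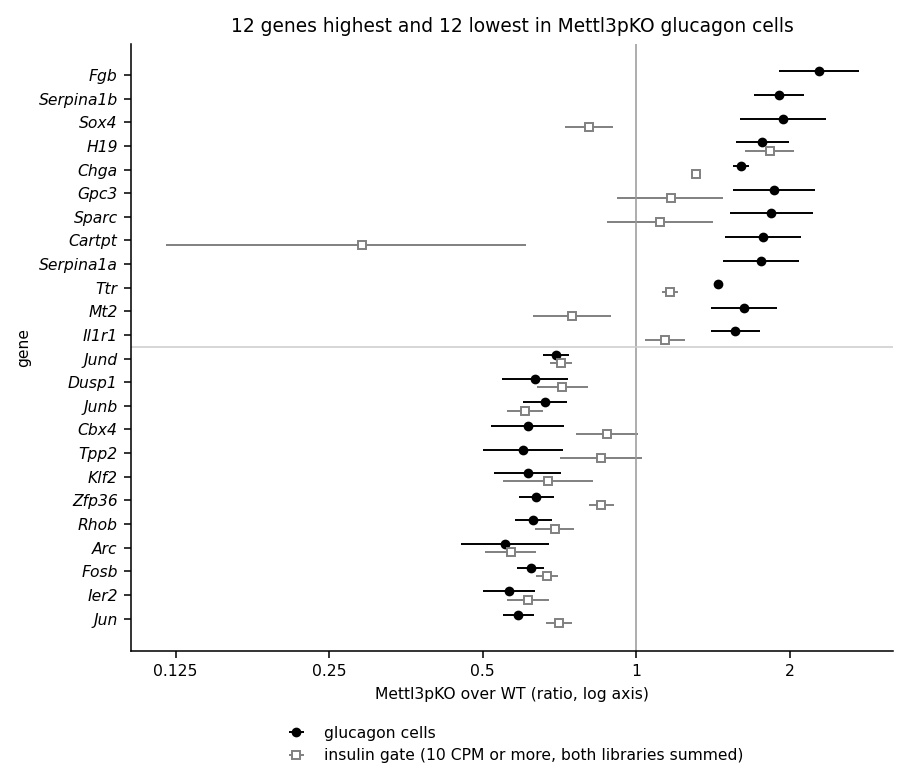
Ratio of Mettl3pKO to WT with exact 95% intervals (counting error) for the 12 highest and 12 lowest genes, in glucagon cells (black) and in the insulin gate (open grey squares, where both libraries summed to 10 CPM or more), on a log axis. The lower block lies left of 1 in both kinds of cell, while Cartpt, Sox4 and Mt2 lie right of 1 in glucagon cells (1.77, 1.94 and 1.63) and left of it in the insulin gate (0.289, 0.808 and 0.749).

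Of the 12 lowest genes in this ranking, without the globins and hormones left out of it, most were immediate early genes, which cells switch on soon after a stimulus and also during digestion of a tissue. Of the 12, 7 belong to a list of 24 such genes and of dissociation stress: Jun, Fosb, Junb, Jund, Ier2, Zfp36 and Dusp1. The list was chosen with earlier results of these data known, so this overlap is a description. Jun, a subunit of AP-1, had 486 CPM in Mettl3pKO glucagon cells and 828 CPM in WT ones (0.587, 0.548 to 0.630). Fosb, another subunit, had 689 and 1110 CPM (0.620, 0.585 to 0.658), and Ier2 168 and 299 CPM (0.564). Median cells differed too, at 3.35 Jun UMIs per 10000 in Mettl3pKO and 6.67 in WT, and at 5.76 and 10.3 of Fosb. Outside the list, Arc, a gene of neuronal activity, had 61.0 and 110 CPM (0.553, 0.452 to 0.673), Klf2 109 and 177 CPM (0.613, 0.527 to 0.712) and the GTPase Rhob 346 and 550 CPM (0.629, 0.578 to 0.683).

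Over the whole list of 24, 3 were at least 1.5-fold higher and 7 at least 1.5-fold lower, with a median log2 ratio of -0.35. Over all genes these shares were 7.08% and 5.51%. Ratios below 1 were found for 19, and the intervals of 16 lay wholly below 1. Of all 11590 genes measured, the intervals of 935 did. Fos itself had 1129 CPM in Mettl3pKO and 1288 CPM in WT (0.877, 0.835 to 0.920), and Egr1 1137 and 1523 CPM (0.746, 0.712 to 0.782). The exceptions were scarce transcripts: Cyr61 with 56.0 and 23.8 CPM (2.35, 1.78 to 3.11), Ier3 with 16.1 and 7.84 CPM, and Myc with 11.9 and 6.83 CPM. Of the Cyr61 UMIs 10 cells held 89.3% in Mettl3pKO and 73.4% in WT, and its ratio was 1.24 (0.678 to 2.23) in cells with little RNA of other cell types, 1.44 in Y-linked cells and 4.65 in Xist cells. The same genes were low in the insulin gate, where all 12 lowest genes had ratios below 1 and the intervals of 10 lay wholly below 1. There 8 of the 24 were at least 1.5-fold lower and 0 higher. In glucagon cells with Xist, Jun stood at 0.763 (0.664 to 0.874) and Fosb at 0.730 (0.646 to 0.821), while Ier2 stood at 0.865 (0.685 to 1.08) in those and at 0.488 in Y-linked cells. In collagen-rich cells Jun had 1119 CPM in Mettl3pKO and 1149 CPM in WT, and Fosb 791 and 875 CPM. At the thinned depth 94.1% of those Mettl3pKO cells and 93.9% of the WT ones had a Jun UMI. For Fosb these shares were 84.3% and 82.6%. The other early genes were not compared there, and the source of the difference was not tested. With 1 library each, the handling of the tissue and the genotype cannot be told apart.

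Atf3, a stress factor that is itself induced early, had 98 UMIs in Mettl3pKO and 377 in WT (0.472, 0.374 to 0.590). The ratio of Atf3 was 0.294 (0.202 to 0.420) in Y-linked cells and 0.835 (0.546 to 1.24) in Xist cells. Ddit3, the factor CHOP, had 15.6 and 31.1 CPM (0.501, 0.332 to 0.738). Atf4 had 176 and 235 CPM (0.750, 0.664 to 0.845). The chaperone of the endoplasmic reticulum Hspa5 had 1023 and 1126 CPM (0.909, 0.863 to 0.956). Of 21 genes of the unfolded protein and integrated stress responses, 1 was at least 1.5-fold higher and 2 lower, where 7.08% and 5.51% of all genes were. The higher one was Nupr1, with 52 UMIs in Mettl3pKO and 55 in WT (1.72, 1.15 to 2.55), which stood at 1.01 (0.513 to 1.92) in cells with little RNA of other cell types. Of 20 p53 targets and apoptosis genes, 0 were at least 1.5-fold higher and 1 lower, Bbc3 with 15 UMIs in Mettl3pKO and 57 in WT; the cell cycle inhibitor Cdkn1a had 73.4 and 56.9 CPM (1.29, 1.05 to 1.59).

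The promoters of Dusp1, a phosphatase gene on chromosome 17, and of Cartpt, on chromosome 13, are set side by side because both hold the full cyclic AMP response element TGACGTCA while the genes stood on opposite sides of 1. Capitals mark the element, at -143 in Dusp1 and -112 in Cartpt. It occurs in 1.79% of all promoter windows, and of the 12 highest and 12 lowest genes, of which 10 and 9 are in the table, it was found in these alone. The RefSeq windows (GRCm38.p6) are chr17:26508423-26508722 and chr13:99900634-99900933, both on the minus strand. A match is a description of the letters and not a site in use.
Dusp1: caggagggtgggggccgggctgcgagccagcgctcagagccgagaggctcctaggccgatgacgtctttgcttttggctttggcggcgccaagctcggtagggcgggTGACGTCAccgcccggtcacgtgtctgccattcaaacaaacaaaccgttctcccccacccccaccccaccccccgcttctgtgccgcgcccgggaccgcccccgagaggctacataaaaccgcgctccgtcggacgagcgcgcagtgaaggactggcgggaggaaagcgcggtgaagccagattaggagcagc
Cartpt: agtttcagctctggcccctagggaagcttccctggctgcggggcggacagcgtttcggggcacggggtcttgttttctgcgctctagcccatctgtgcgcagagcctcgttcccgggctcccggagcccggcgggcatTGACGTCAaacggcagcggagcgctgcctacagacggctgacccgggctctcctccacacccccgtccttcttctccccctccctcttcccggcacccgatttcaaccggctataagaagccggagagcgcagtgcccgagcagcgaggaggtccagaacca

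Genes of DNA replication stood above even as a group. Of 22 S phase genes, 15 were at least 1.5-fold higher in Mettl3pKO glucagon cells and 0 lower, with a median log2 ratio of 0.72, where 7.08% of all genes were that much higher. The replicative helicase subunit Mcm3 had 33.0 CPM in Mettl3pKO and 11.1 CPM in WT (2.97, 2.01 to 4.42). Rrm2, of ribonucleotide reductase, had 41.3 and 18.5 CPM (2.24, 1.62 to 3.09), and it stood at 1.32 (0.881 to 1.95) in cells with little RNA of other cell types. The 10 richest cells held 70.8% of the Mcm3 UMIs in Mettl3pKO and 54.5% in WT. For Rrm2 they held 77.8% and 80.8%. In the insulin gate 17 of the 22 S phase genes were at least 1.5-fold higher and 0 lower, with a median log2 ratio of 0.82. The sliding clamp Pcna had 103 and 62.7 CPM (1.64, 1.36 to 1.97). Of 9 proliferation genes expressed later in the cycle, 3 were at least 1.5-fold higher and 0 lower, with a median log2 ratio of 0.51. These were Aurkb, Cenpf and Birc5, which stood at 1.11, 1.27 and 1.02 in cells with little RNA of other cell types. Mki67 had 129 and 87.0 CPM (1.49, 1.27 to 1.75), with a ratio of 3.01 (2.17 to 4.23) in Y-linked cells and of 0.708 (0.481 to 1.01) in Xist cells. Cdk1 was even at 73.9 and 71.1 CPM (1.04, 0.851 to 1.27).

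The share of cycling cells did not differ beyond counting error. Cells with 2 or more UMIs over the 9 proliferation genes were 31 of 136 in Mettl3pKO (22.8%, 16.0 to 30.8) and 47 of 276 in WT (17.0%, 12.8 to 22.0), a ratio of 1.34 (0.822 to 2.15). Thinned to one depth the shares were 17.6% and 14.9%, a ratio of 1.18. In the insulin gate they were 48 of 146 and 48 of 364, 32.9% and 13.2%, a ratio of 2.49 (1.64 to 3.80). In glucagon cells with a Y-linked UMI the shares were 22 of 92 in Mettl3pKO and 12 of 119 in WT, a ratio of 2.37 (1.12 to 5.26), and with Xist 4 of 25 and 27 of 120, a ratio of 0.711 (0.181 to 2.04).

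**Figure D5:**
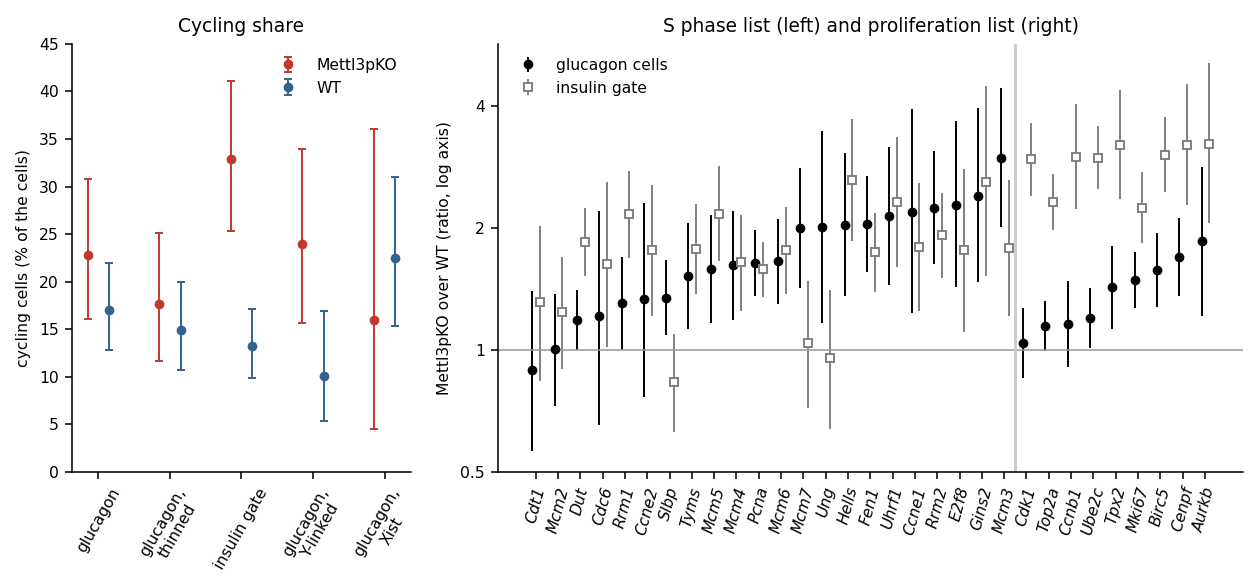
Left: share of cycling cells, in % with exact 95% intervals, in Mettl3pKO (red, left of each pair) and WT (blue), for glucagon cells, the same cells thinned to one depth, the insulin gate, and glucagon cells with Y-linked or Xist UMIs. Right: ratio of Mettl3pKO to WT on a log axis for the S phase and proliferation genes in glucagon cells (black) and the insulin gate (open grey squares); Mcm3 is the highest in glucagon cells at 2.97, and the ratio of each of the 9 proliferation genes is higher in the insulin gate than in glucagon cells.

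Cycling glucagon cells had lower levels of Gcg, Ttr and Chga than the remaining glucagon cells. The cycling cells were chosen by their proliferation UMIs, and the values describe them. These cells were deeper, with medians of 16198 against 14607 UMIs in Mettl3pKO and 18203 against 13139 in WT. Of duct and trunk genes, 7 of 12 in Mettl3pKO and 7 of 14 in WT were at least 1.5-fold higher in them. No doublets were removed, and the source of these differences was not tested. In Mettl3pKO, 16.2% of 9648 genes were at least 1.5-fold higher in cycling than in other glucagon cells and 16.0% lower, and in WT 11.6% and 11.7% of 10826. Gcg had 88711 CPM in cycling and 105553 CPM in other Mettl3pKO cells (0.840), and 85846 and 94152 CPM in WT (0.912). Ttr stood at 0.714 in Mettl3pKO and 0.790 in WT, and Chga at 0.604 and 0.785. Ghrl was at least 1.5-fold lower in the cycling cells of both libraries. It had 130 CPM in cycling and 432 CPM in other Mettl3pKO cells, and 740 and 1316 CPM in WT.

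Cells with more Gcg carried more Ttr, Iapp and Pcsk2 in both libraries. The rule used Gcg too, so the values describe this split. The cells of each library were parted at their median Gcg, 68 and 68 in Mettl3pKO and 138 and 138 in WT, and levels were taken per 1000000 UMIs without Gcg. At least 1.5-fold higher in the richer cells were 6.49% of genes in Mettl3pKO and 4.59% in WT, and lower were 11.9% and 10.4%. Ttr was 1.34 times as high in the richer cells of Mettl3pKO and 1.41 times in WT, Iapp 1.44 and 1.40 times and Pcsk2 1.19 and 1.24 times. Across the cells of Mettl3pKO and of WT, Spearman correlations with Gcg were weak. They were 0.231 and 0.328 for Ttr, 0.170 and 0.136 for Iapp, and 0.275 and 0.202 for Pcsk2. Cartpt was 2.24 and 2.21 times as high, but 10 cells held 70.4% of its UMIs in Mettl3pKO and 89.1% in WT. The granulocyte genes S100a8 and S100a9 rose more. S100a8 was 17.0 times as high in Mettl3pKO and 63.7 times in WT, and S100a9 7.44 and 39.9 times. The source of these UMIs was not tested. Irx2 was nearer to even, at 1.17 times in Mettl3pKO and 1.01 times in WT. Of the duct and trunk genes measured, 0 of 12 were at least 1.5-fold higher and 8 lower in the richer cells of Mettl3pKO, and 0 and 6 of 14 in those of WT. The Notch target Hes1, much of it in a few cells, stood at 0.174 times in Mettl3pKO and 0.319 in WT, Sox9 at 0.281 and 0.360, and Spp1 at 0.211 and 0.400. Proliferation genes were lower there too, with 6 of 9 at least 1.5-fold lower in Mettl3pKO and 9 of 9 in WT. The part of RNA of other cell types in this split was not tested.

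RNA of other cell types was present at low levels and differed between the libraries. The 24 acinar genes in the tables summed to 3089 CPM in Mettl3pKO glucagon cells (cells from 11.5 to 397 per 10000) and 2278 CPM in WT ones (7.02 to 490), with Pnlip at 0 in Mettl3pKO. Serpina6 was 4.13 times as high in Mettl3pKO (254 against 61.4 CPM); in collagen-rich cells it had 2161 and 108 CPM, and its part in the glucagon cells as free RNA was not tested. Of 7 erythroid genes measured, 7 were at least 1.5-fold lower in Mettl3pKO, where 5.51% of all genes were. Erythroid genes summed to 1901 CPM in Mettl3pKO and 5712 CPM in WT, with single cells reaching 706 and 1672 UMIs per 10000 and Slc4a1 at 0 in Mettl3pKO. The 15 duct and trunk genes summed to 915 and 829 CPM (cells up to 51.2 and 80.6 per 10000), and Cftr was at 0 in both. Hes1 had 99.5 and 36.9 CPM, of which 10 cells held 79.7% in Mettl3pKO and 65.1% in WT. Mesenchyme genes summed to 244 and 201 CPM, immune genes to 89.0 and 118 CPM, endothelial genes to 18.8 and 23.5 CPM, glial genes to 31.7 and 34.9 CPM and mesothelial genes to 33.9 and 9.10 CPM. Tie1 and Emcn of the endothelium and Msln of the mesothelium were at 0 in both libraries. The part of this RNA in the other differences was not tested.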

How the data were processed

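The deposited tables, 1 per library, held unscaled UMI counts in whole numbers, with cells in rows and genes in columns. They came from the BD WTA Rhapsody Analysis Pipeline 1.8, per the file headers. Seurat and the build mm10 are named in the submitters' processing notes without a role. Each table ended in 1 incomplete line, which was dropped, so shallow cells may be missing. Genes listed in both tables (22023) were used. UMIs of glucagon cells were summed per library and given as CPM. Ratios have exact conditional binomial 95% intervals, levels exact Poisson and shares Clopper-Pearson ones, which cover counting error only. A gene counted as 1.5-fold higher or lower had 20 or more UMIs over both libraries. With 1 library per genotype no p-value was computed. Doublets were called with Scrublet in Scanpy 1.11.5, which marked 1 of 3624 Mettl3pKO cells, and thus did not work there, and 336 of 6384 WT cells. None was removed from the values above. Python 3.11.15, NumPy 2.4.6, SciPy 1.17.1 and pandas 2.3.3 were used. The interval and calling code was tested on simulated Poisson sums with known ratios. These lack the clustering of UMIs in few cells, so the test says nothing about the intervals of such genes. The named genes were members of 28 lists, the 12 genes farthest from even each way (mitochondrial, ribosomal protein, globin, sex-linked, acinar and hormone genes left out), and the genes farthest from the insulin gate. The cells, lists and rules were chosen with earlier results of these data known. Alternatives changed the cell filters, thresholds, scaling and call limits. Values of a few listed genes are not reported here.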

Additional observations from a re-analysis of the deposited data

Results flagged for a closer look

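Several results pointed in opposite directions in 2 kinds of cell, and none of these differences was tested. Cartpt stood at 1.77 times WT in Mettl3pKO glucagon cells and at 0.289 times in the insulin gate, where its levels were 3.24 CPM in Mettl3pKO and 11.2 CPM in WT. Ier3, an immediate early gene, stood at 2.05 in glucagon cells and 0.606 in the insulin gate.

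Ins2 stood at 1.63 among glucagon cells with a Y-linked UMI (290 CPM in Mettl3pKO and 178 CPM in WT) and at 0.495 among those with Xist (150 and 303 CPM). Nnat, an imprinted gene that beta cells express, stood at 1.99 among cells with a Y-linked UMI (56.9 CPM in Mettl3pKO and 28.6 CPM in WT) and at 0.333 among those with Xist (22.8 and 68.6 CPM). The rule limits Ins2, and the Xist values rest on 25 Mettl3pKO cells with 59 Ins2 and 9 Nnat UMIs. Over all glucagon cells, 10 cells held 55.9% of the Ins2 UMIs in Mettl3pKO and 46.7% in WT. For Nnat they held 82.1% and 65.3%. The share of cycling glucagon cells was 2.37 times that of WT in Y-linked cells and 0.711 times in Xist cells, the second from 4 of 25 Mettl3pKO cells.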

How the results depend on the processing

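No paired analysis was possible because each genotype had 1 library. Depth limits scarce transcripts, and the tables may lack shallow cells. Mettl3pKO over WT, the glucagon share of all cells and of epithelial cells was 1.20 and 1.07 with at most 10% mitochondrial UMIs and at least 500 genes, 0.467 and 0.451 in cells with 13000 UMIs or more, 0.670 and 0.523 in cells with a Y-linked UMI and no Xist, and 0.561 and 0.529 in cells at or above the lowest Mettl3pKO total (chosen after seeing the data). The ratio of cycling shares was 2.37 in cells with a Y-linked UMI and 0.711 in cells with Xist. The cause of these moves was not tested.

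Genes at least 1.5-fold higher and lower numbered 2982 and 3042 with no UMI filter and 183 and 162 with at least 100 UMIs; 216 and 202 were past 2-fold. Among cells with Xist, 1330 genes were lower. Of 384 values for the 12 highest and 12 lowest genes over 16 settings, 380 kept their direction. These genes were picked as extremes of the same cells, and the settings share those cells, so this agreement was largely fixed in advance. Of 53 named genes past 1.5-fold over all glucagon cells, 48 kept their direction among cells with Xist and 27 stayed past 1.5-fold.

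In Y-linked cells H19 stood at 0.963 and Sparc at 0.901. Among cells with Xist, Fgb stood at 0.972, Gast at 1.03, Cenpf at 0.639, Mest at 0.845 and Nupr1 at 0, with no Mettl3pKO UMI. Without the cycling cells, Mt2 stood at 0.853, Ldha at 0.892, Mest at 0.984 and E2f8 at 0. Cenpf stood there at 0.549, Birc5 at 0.349 and Aurkb at 0, but these genes are among the 9 whose UMIs the filter limits, so these values say nothing about stability. Mest stood at 0.978 with Ctrb1 under 20 per 10000. In cells with little RNA of other types, chosen after seeing the data, Ldha stood at 0.611 and Slc16a1 at 0.833.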

Other observations

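Of 18 listed receptors that alpha cells use to sense fuels and other hormones, 11 had 20 or more UMIs. Of these, 0 were at least 1.5-fold higher and 0 lower in Mettl3pKO glucagon cells, where 7.08% and 5.51% of all genes were. Gpr119, a lipid receptor, had 130 CPM in Mettl3pKO and 121 CPM in WT (1.07, 0.924 to 1.25), and Ffar1, a fatty acid receptor, 132 and 120 CPM (1.10, 0.945 to 1.27). The GIP receptor Gipr had 88.5 and 97.1 CPM (0.912, 0.763 to 1.09), and the somatostatin receptor Sstr2 83.5 and 65.5 CPM (1.27, 1.05 to 1.55). Glp1r had no UMI in either library.

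Of 15 genes of nutrient uptake and glucose use, 3 were at least 1.5-fold higher and 0 lower, where 7.08% and 5.51% of all genes were. Of the 3, Ldha and Slc16a1 were scarce, with a UMI in 15 and 10 of 136 Mettl3pKO glucagon cells. In cells with little RNA of other cell types they stood at 0.611 (0.237 to 1.40) and 0.833 (0.227 to 2.60), and G6pc2 at 1.73. G6pc2, a glucose phosphatase of islet cells, had 46.8 CPM in Mettl3pKO and 30.6 CPM in WT (1.53, 1.16 to 2.01). The amino acid transporter Slc38a2 had 75.2 CPM in Mettl3pKO and 109 CPM in WT (0.689, 0.572 to 0.826). Of 17 adhesion and guidance genes, 2 were at least 1.5-fold higher and 0 lower. E-cadherin, Cdh1, had 121 and 152 CPM (0.793, 0.683 to 0.918) and Ncam1 240 and 231 CPM (1.04, 0.929 to 1.16).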
